A study of Acrobeloides nanus with 194 samples.

Results

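The germline precursor P2 was set against the somatic founder cell AB in 3-cell embryos of Acrobeloides nanus, a free-living nematode that reproduces by parthenogenesis. The cells were taken by their titles, which name 6 P2 and 7 AB libraries, and by a minimum total of 10000 counts. That left 12 of 13 libraries, 5 of P2 and 7 of AB, or 6.19% of the libraries of the series. The left-out library, P2 replicate 4, held 9664 counts. Each library was made by CEL-Seq2, which primes at the poly(A) tail and gives each sample its own barcode, from 1 blastomere separated by hand after the eggshell was removed. The labels give no strain, treatment or age beyond the stage, and all groups are embryonic cells. An embryo of this stage has 1 P2 and 1 AB cell, so replicates of a cell came from different embryos, and p-values measure the spread between these embryos and libraries. The third cell of the embryo, EMS, was measured in 4 libraries above the minimum and shared the estimate of spread and the filter on low counts.

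In nematode embryos the zygote P0 divides unequally into AB, a somatic founder, and P1. P1 divides into EMS, whose descendants include the gut, and P2, which keeps the germline fate. P2 then divides into C and P3, so that the P cells form a single line leading to the primordial germ cells. In Caenorhabditis elegans the P cells inherit cytoplasmic P granules and maternal RNAs, and their nuclei are held back from transcription by PIE-1 while the somatic cells begin to transcribe. Rows are not paired with genes in the files used, so these genes could not be looked up, and a row is named by its position in the table.

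Depth and composition varied among the libraries of both cells. P2 totals ran from 23755 to 120632 counts with a median of 56999, and AB totals from 25213 to 307179 with a median of 135975. The mean log2 total was 15.86 ± 0.94 in P2 (SD, n = 5) and 16.91 ± 1.23 in AB (SD, n = 7), a difference of −1.04 (exact permutation, two-sided, p = 0.139, or 0.417 adjusted over 3 tests). Without AB replicate 4 it was −1.42 (exact permutation p = 0.0216). A single count was worth 42.1 CPM (counts scaled to a common library total) in P2 replicate 1 and 8.29 CPM in P2 replicate 2, the shallowest and the deepest P2 library. Scored on the main axis of variation (the first principal component) over the libraries of the series that were matched and above the minimum, 1 of 5 P2, 2 of 4 EMS and 3 of 7 AB libraries had a negative score. Among the cells compared these low-score libraries were P2 replicate 1 and AB replicates 2, 4 and 8.

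At equal depth no difference between P2 and AB in the number of different RNAs was detectable. Thinned to 10000 counts, P2 libraries showed 4415 ± 666 of the 16853 rows (SD, n = 5) and AB libraries 4586 ± 816 (SD, n = 7). The difference was −170.7 rows (exact permutation, two-sided, p = 0.732, adjusted p = 0.732), and it was 110.9 rows without P2 replicate 1 and 0.20 rows without AB replicate 1. The 100 rows most abundant outside this stage took 21.6 ± 7.34% of P2 counts and 16.96 ± 9.63% of AB counts (SD, n = 5 and 7). That difference of 4.60 percentage points did not pass either (exact permutation p = 0.404, adjusted p = 0.606). P2 replicate 1 gave the highest of the P2 shares, 34.4%, against 16.4% to 20.5% in the other P2 libraries.

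The libraries did not sort cleanly by cell. Over the 3097 rows tested, the Spearman correlation of 2 P2 libraries with scores above 0 had a median of 0.561 (0.476 to 0.639, 6 pairs). P2 with AB libraries had a median of 0.318 (0.266 to 0.634, 16 pairs) and AB with AB a median of 0.586 (0.403 to 0.708, 6 pairs). The upper end of the P2 with AB range belongs to 1 library. The library labelled AB replicate 3 correlated with the 4 P2 libraries at a median of 0.557 (0.505 to 0.634) and with the other 3 AB libraries at 0.443 (0.403 to 0.576). Without it, P2 with AB pairs had a median of 0.309 (0.266 to 0.417, 12 pairs) and AB with AB pairs of 0.651 (0.595 to 0.708, 3 pairs). The low-score libraries were alike whatever their cell: AB pairs had a median of 0.410, and P2 replicate 1 correlated with those 3 AB libraries at 0.402. The pairs share libraries and depth, so these values are a description. For P2 minus AB, the calls and the fold changes of the called rows are given below with and without the library labelled AB replicate 3 and the low-score libraries. The other comparisons use all libraries above the minimum unless stated.

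**Figure D1:**
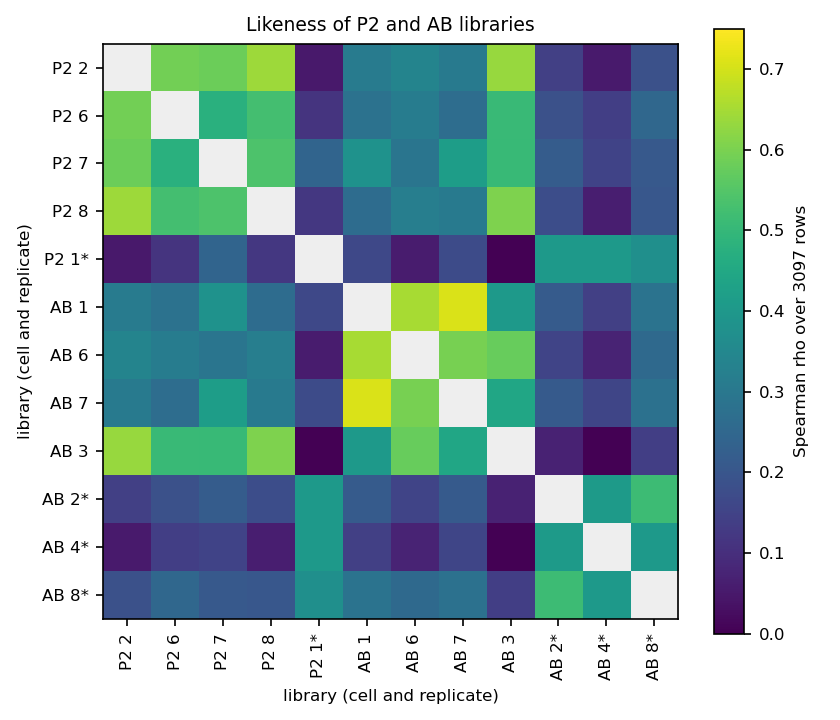
Spearman correlation over the 3097 rows tested between every pair of P2 and AB libraries of the 3-cell stage, named by cell and replicate, with an asterisk on low-score libraries. P2 replicates 2, 6, 7 and 8 form 1 bright block and AB replicates 1, 6 and 7 another, and AB replicate 3 is brighter against P2 (median 0.557) than against those AB libraries (median 0.443).

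Few rows separated P2 from AB beyond the spread of the libraries, and those that did were of modest abundance. Of the 3097 rows tested, 6 passed an adjusted p under 0.05 in edgeR's quasi-likelihood test, which is 0.194% of the rows. Of these, 4 were higher in P2 (0.129%) and 2 were lower (0.0646%). At an unadjusted p under 0.05 there were 516 rows (16.7%), and 342 of these were lower in P2. The median log2 fold change over all 3097 rows was −0.12, with quartiles of −0.70 and 0.40, and the median standard error was 0.57. Fold changes beyond 4-fold were seen in 212 rows, of which 36 were higher in P2. The ranges of the P2 and AB libraries did not overlap in 19 rows (0.613%), 5 of them higher and 14 lower in P2, and 2 of the 6 called rows were among these.

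**Figure D2:**
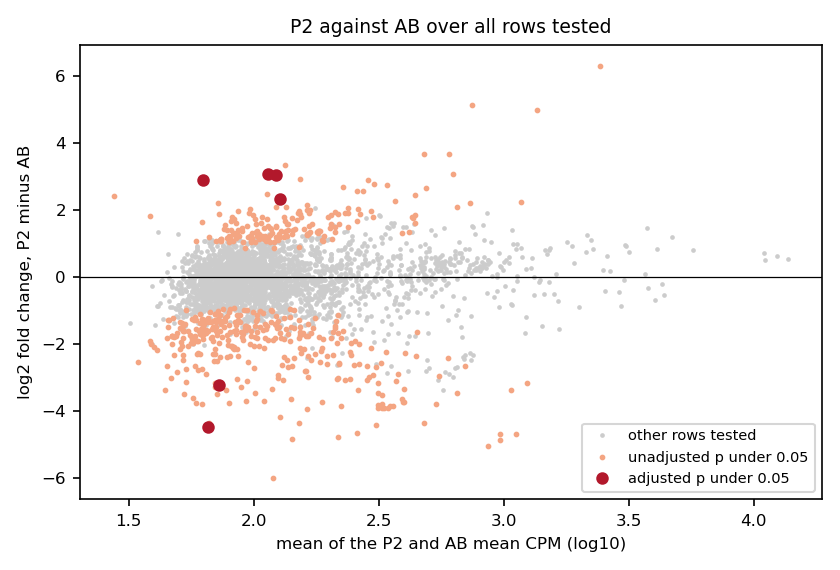
Log2 fold change of P2 over AB for each of the 3097 rows tested against the log10 of the mean of both cells' mean CPM, with rows at an unadjusted p under 0.05 in orange and the 6 rows at an adjusted p under 0.05 in dark red. The called rows sit on the left, at low abundance, and the largest fold changes on either side, from −6.02 to 6.31, were not called.

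Row 2159 was the row with the smallest p of those higher in P2. It was at 42.1, 373.04, 221, 166.3 and 263 CPM in P2 replicates 1, 2, 6, 7 and 8, from 1, 45, 10, 17 and 15 counts. In AB it ran from 16.4 to 79.3 CPM with a median of 23.9, and in EMS from 0 to 59.8 CPM. P2 replicates 2, 6, 7 and 8 were above every AB and EMS library, and the groups overlapped through the single count of P2 replicate 1. P2 averaged 213 ± 122.05 CPM and AB 31.4 ± 21.7 CPM (SD over 5 and 7 libraries), and the fitted log2 fold change was 3.04 ± 0.48 (SE, edgeR adjusted p = 0.00597).

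Row 8539 was next by p. It was at 0, 216, 397, 166.3 and 263 CPM in P2 replicates 1, 2, 6, 7 and 8, and in AB at 0 to 52.6 CPM with a median of 14.7. The same 4 P2 libraries were above every AB library, and P2 replicate 1 had no count, which at its depth allows up to 126.3 CPM. P2 averaged 208 ± 144.9 CPM and AB 18.6 ± 19.4 CPM (SD over 5 and 7 libraries), with a fitted log2 fold change of 3.08 ± 0.53 (SE, edgeR adjusted p = 0.0121). EMS was at 43.1 ± 29.6 CPM (SD, n = 4).

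The other rows called higher in P2 are the third and the fourth by p. The third was at 84.2, 339.9, 353, 88.02 and 175.4 CPM in P2 replicates 1, 2, 6, 7 and 8, and in AB at 0 to 118.99 CPM with a median of 45.6. It stood above every AB library in 3 of 5 P2 libraries, and its log2 fold change was 2.34 ± 0.47 (SE, edgeR adjusted p = 0.0391). The fourth was at 126.3, 91.2, 154.6, 78.2 and 122.8 CPM in the same P2 libraries, and in AB at 0 to 22.8 CPM with a median of 8.77. Its groups did not overlap, low-score libraries included, although it was the scarcest of the called rows in AB, with 0 to 7 counts a library. In AB replicate 4, a low-score library, its count of 0 allows up to 118.99 CPM, above the values of P2 replicates 2 and 7. The fourth row averaged 114.6 ± 30.3 CPM over the P2 and 10.5 ± 8.86 CPM over the AB libraries (SD, n = 5 and 7), and its log2 fold change was 2.92 ± 0.60 (SE, edgeR adjusted p = 0.0391).

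Row 10236 had the smallest p of the rows lower in P2 and was almost absent from that cell. Of the 5 P2 libraries only replicate 7 had any count, 2 counts or 19.6 CPM. In AB it ran from 39.7 to 245 CPM with a median of 113.9, so the groups did not overlap. A count of 0 allows up to 126.3 CPM in P2 replicate 1, 66.2 CPM in replicate 6, 52.6 CPM in replicate 8 and 24.9 CPM in replicate 2. The limit in replicate 2 lies below every AB library and that in replicate 8 below all but the lowest. P2 averaged 3.91 ± 8.75 CPM and AB 127.2 ± 74.6 CPM (SD over 5 and 7 libraries), with a fitted log2 fold change of −4.49 ± 0.83 (SE, edgeR adjusted p = 0.0204). Summed over libraries and divided by their totals, the 2 P2 counts stood to the AB counts as a ratio of 0.0422, with an exact 95% interval of 0.00506 to 0.155 that covers counting error alone.

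Row 3985 was the other row lower in P2. It was at 0, 41.4, 0, 9.78 and 0 CPM in P2 replicates 1, 2, 6, 7 and 8, and in AB at 39.7 to 248 CPM with a median of 155.3. Replicate 2 of P2, with 5 counts, lay just above the lowest AB library, and the other 4 P2 libraries lay below every AB library. P2 averaged 10.2 ± 17.9 CPM and AB 134.5 ± 75.9 CPM (SD over 5 and 7 libraries), and the fitted log2 fold change was −3.22 ± 0.67 (SE, edgeR adjusted p = 0.0391). P2 replicate 4, the library below the minimum total, held 1 count of row 8539 and 0 of the other 5 called rows.

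**Figure D3:**
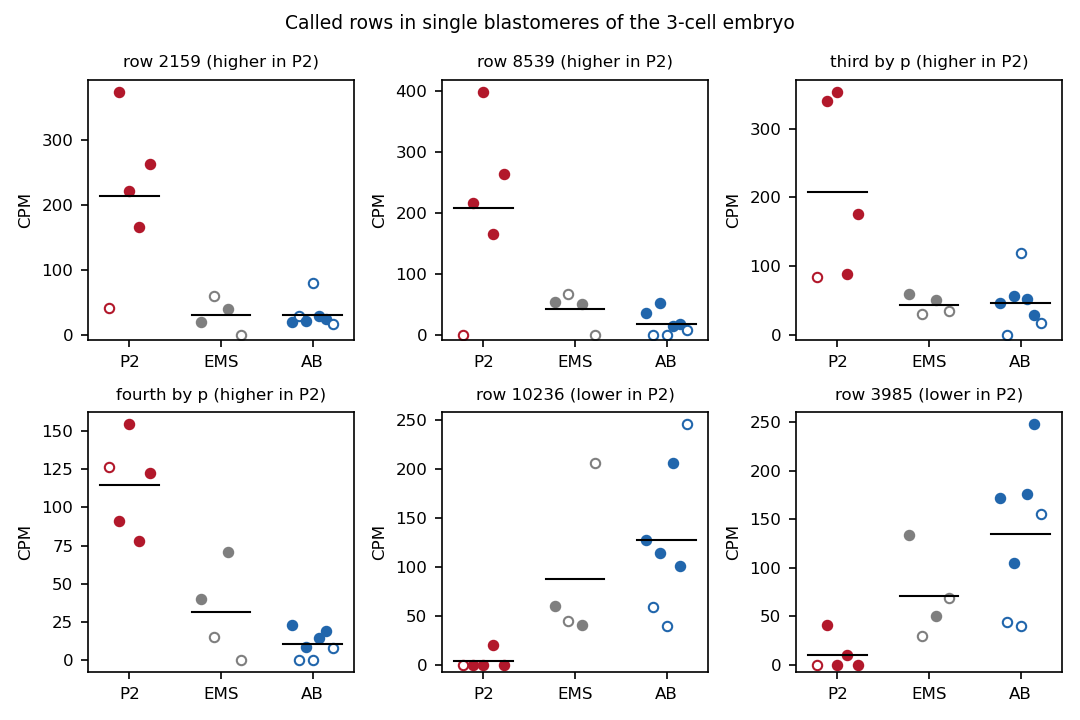
CPM of the 6 called rows in each P2, EMS and AB library of the 3-cell stage, with a line at the mean and open circles for low-score libraries. The first 4 panels show rows higher in P2, where the lowest P2 value is the open circle of replicate 1 in all but the fourth, and the last 2 panels show rows at 0 to 41.4 CPM in P2 and at 39.7 CPM or more in AB.

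EMS, the sister of P2, lay between the 2 cells or beside AB at these rows. EMS minus AB log2 fold changes were 0.40 for row 2159, 1.04 for row 8539, 0.17 for the third and 1.34 for the fourth row higher in P2, and −1.06 for row 10236 and −1.05 for row 3985. None was called (edgeR adjusted p = 0.838 to 0.978). P2 minus EMS log2 fold changes were 2.64, 2.04, 2.17 and 1.57 for the 4 rows higher in P2, in the same order, and −3.43 and −2.16 for rows 10236 and 3985. These were not called either (edgeR adjusted p = 0.259 to 0.344), so a difference between P2 and EMS was not shown at any of the 6 rows. All 3 contrasts use the same libraries.

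The largest fold changes rested on single libraries or on part of the AB libraries and passed no adjusted test. These rows were chosen after their values were seen. The row with the highest fold change, 6.31 ± 1.61 on the log2 scale (SE, edgeR adjusted p = 0.0761), had 567 counts or 23869 CPM in P2 replicate 1. It had 0 to 68.5 CPM in the other P2 libraries and 0 to 119.3 CPM in AB. In 4 of the 5 rows with the highest fold changes, P2 replicate 1, a low-score library, was the highest P2 library. The row with the lowest fold change, −6.02 ± 1.59 on the log2 scale (SE, edgeR adjusted p = 0.0802), had 1 count in all P2 libraries together. In AB it was at 596, 478 and 558 CPM in replicates 1, 6 and 7, at 26.3 CPM in replicate 3 and at 0 in the low-score replicates 2, 4 and 8. AB thus split within itself at this row, and P2 matched its lower libraries.

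The number of called rows turned on which libraries were used. On the same 3097 rows, leaving out the library labelled AB replicate 3 gave 86 called rows, 47 higher and 39 lower in P2, and kept all 6. That library was singled out by its likeness to P2 over these same rows. Neither the rise in calls nor the 6 rows kept is therefore independent evidence of a difference. Leaving out low-score libraries called 3.84% of the rows, 22 higher and 97 lower in P2, and also kept all 6. On the log2 scale, row 2159 was at 2.93 without AB replicate 3 and 3.51 without the low-score libraries, and row 8539 at 3.42 and 3.03. The third row was at 2.41 in both fits, and the fourth at 2.75 and 2.68. Row 10236 was at −4.57 and −4.21, and row 3985 at −3.32 and −3.20. Removing 1 of the other AB libraries gave 22 called rows without replicate 8, 16 without replicate 4 and 11 without replicate 2, and 3 each without replicates 1, 6 or 7. Removing 1 P2 library gave 5 without replicate 1, 4 without replicate 7, 3 without replicate 2 and 1 without replicate 6 or replicate 8. None of the 6 rows changed direction in these fits or under the other settings run. The score was not shown to measure library quality, and the part of library quality in the result was not tested.

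**Figure D4:**
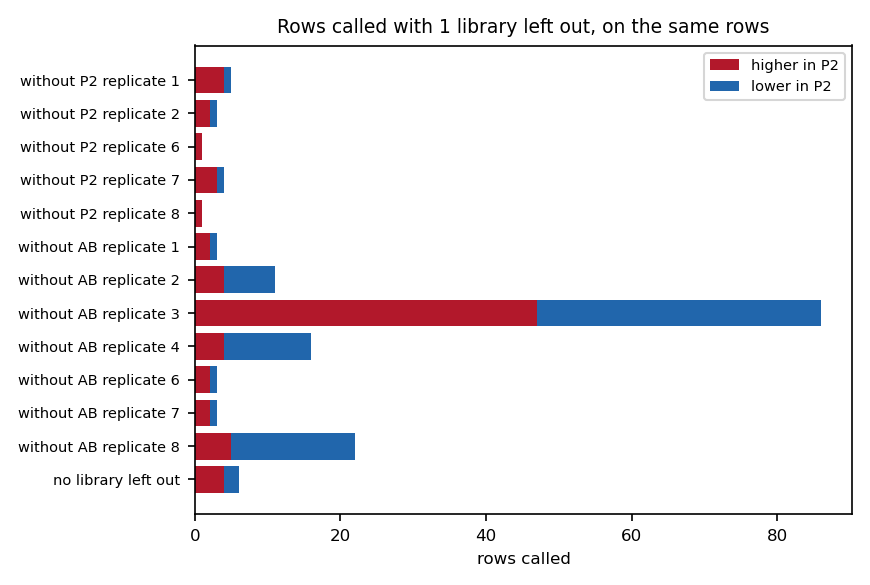
Number of rows called (edgeR, adjusted p under 0.05) on the same 3097 rows when each P2 or AB library is left out in turn, split into rows higher in P2 and lower in P2, with the fit on all libraries at the bottom. The bar without AB replicate 3 reaches 86 rows, against 22 or fewer for every other library left out and 6 with none left out.

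Sample numbers, which end the sample descriptions, fall into a set below 50 and a set of 50 and above, and both cells occur in both. No label calls these sets batches. AB replicate 3 is the only AB library from 50 up with a score above 0, so leaving it out leaves none there. It correlated at 0.634 and 0.605 with P2 replicates 2 and 8 of the same set. With libraries numbered below 50 it was at 0.509 and 0.505 for P2 replicates 6 and 7, and at 0.403, 0.576 and 0.443 for AB replicates 1, 6 and 7. The part of the sample set in the likeness of AB replicate 3 to P2 was not tested. Within the libraries numbered below 50, which hold 3 P2 and 4 AB, none of the 3097 rows was called by edgeR, with 410 (13.2%) at an unadjusted p under 0.05. Within the rest, 2 P2 and 3 AB, none was called either, with 3.94% of the rows at an unadjusted p under 0.05. Row 2159 had log2 fold changes of 2.59 below 50 and 3.55 from 50 up. Row 10236 was at −3.31 below 50, and P2 libraries numbered 50 and above had no count of it. A fit with a term for the 2 sets called 9 rows.

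The other P cells gave the same comparison in libraries that did not choose the 6 rows. At the 2-cell stage P1, the mother of P2, was set against AB with 7 libraries each, on the same 3097 rows. None was called by edgeR (0.0%), with 5.78% of the rows at an unadjusted p under 0.05. P1 minus AB log2 fold changes were 1.04 ± 0.64 for row 2159, −1.10 ± 0.70 for row 8539, −0.43 ± 0.47 for row 10236 and 0.60 ± 0.52 for row 3985 (SE, edgeR adjusted p = 0.837 to 0.904 over the 6 rows). The third and the fourth row were at 0.74 and 1.19, so 4 of 6 rows had the sign seen in P2. Over all 3097 rows, 55.8% were positive and 44.2% negative in P1 minus AB. At the 4-cell stage P3, the daughter of P2, was set against AB with 4 and 3 libraries. There 3 rows were called (0.0969%), all lower in P3, with 284 at an unadjusted p under 0.05, and none of the 6 was among them. No row was called without P3 replicate 4, P3 replicate a or AB replicate 2, 1 without P3 replicate 2, 5 without AB replicate 4, and 6 without AB replicate 3 or P3 replicate 3.

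P3 minus AB had the sign of P2 minus AB at all 6 rows, and none passed the adjusted test. Over all 3097 rows, 59.3% were positive and 40.7% negative in P3 minus AB. The log2 fold changes were 2.41 ± 0.99 for row 2159, 1.69 ± 0.90 for row 8539, 0.23 ± 0.83 for the third and 1.73 ± 0.94 for the fourth row (SE). Rows 10236 and 3985 were at −1.55 ± 0.84 and −2.39 ± 1.08 (SE, edgeR adjusted p = 0.428 to 0.969 over the 6 rows). Row 2159 stood at 216, 63.3, 37.3 and 115.8 CPM in P3 replicates 4, 2, 3 and a, and at 19.9, 51.6 and 0 CPM in AB replicates 4, 3 and 2 of that stage. Those AB values are 3 counts in all, against 21 in P3, a ratio of 6.03 of total-scaled counts with an exact 95% interval of 1.799 to 31.6 for counting error. Row 3985 had 2 counts in P3 and 12 in AB, a ratio of 0.143 with an interval of 0.0156 to 0.644. The ratio was 2.93 (1.04 to 10.1) for row 8539 and 0.287 (0.0932 to 0.755) for row 10236. It was 1.05 (0.485 to 2.29) for the third and 3.01 (0.946 to 12.6) for the fourth row, intervals that include 1. The 3 rows called in P3 were also lower in P2 than in AB at 3 cells, at log2 fold changes of −4.80 ± 1.34, −4.85 ± 1.30 and −1.71 ± 0.78 (SE), without passing there (edgeR adjusted p = 0.0911, 0.0844 and 0.280). At the first 2 of these rows the 3-cell AB libraries split within themselves. Replicates 1, 6 and 7 of AB were at 574 to 1074 CPM, and replicate 3 was at 61.4 and 52.6 CPM. The low-score AB replicates 2, 4 and 8 were at 0 to 16.4 CPM. The 3-cell fold changes of these 2 rows thus rested on part of the AB libraries.

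Whether the difference from AB changed between stages was tested over 5137 rows. No row was called by edgeR for 3 cells against 2 cells, with 608 at an unadjusted p under 0.05, or for 3 cells against 4 cells, with 227. For the 6 rows the adjusted p was 0.111 to 0.497 against 2 cells and 1.00 against 4 cells. The data do not show that the difference is particular to the 3-cell stage, nor that it is the same at the others.

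Set against the zygote, the called rows were closer to P0 in P2 than in AB. This comparison was added after the values were seen and has 3 P0 libraries with 27151, 313958 and 1217040 counts. Of 4977 rows tested, P2 minus P0 had none called by edgeR (0.0%), with 2.65% of the rows at an unadjusted p under 0.05. AB minus P0 had 28 called (0.563%), 2 higher and 26 lower in AB, with 620 at an unadjusted p under 0.05. Fewer P2 libraries entered, and the 2 counts of calls were not tested against each other. Without P0 replicate 2, 1 row was called for P2 minus P0. For AB minus P0 no row was called without P0 replicate 3. Leaving out P0 replicate 2 or AB replicate 1, 6 or 7 gave 4 to 8 called rows, and leaving out P0 replicate 1, P2 replicate 1 or AB replicate 2, 3 or 4 gave 43 to 62. Without the low-score libraries of the 3-cell stage, AB minus P0 had 3.74% of the rows called, and the balance turned: 45 of these were lower in AB and the larger part higher.

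Row 2159 averaged 213 CPM in P2 and 31.4 CPM in AB of 3 cells, and 288 ± 264 CPM in P0 (SD, n = 3). P0 replicates 1, 2 and 3 were at 0, 344 and 519 CPM, and replicate 1 is a low-score library. The log2 fold change of row 2159 was −0.32 ± 0.68 for P2 minus P0 (SE, edgeR adjusted p = 1.00) and −3.41 ± 0.68 for AB minus P0 (SE, edgeR adjusted p = 0.0209). Row 8539 was at 0.11 ± 0.69 for P2 minus P0 and −3.08 ± 0.66 for AB minus P0 (SE, edgeR adjusted p = 0.0313). The third and the fourth row were called lower in AB than in P0 as well, at −2.62 ± 0.61 and −3.44 ± 0.57 (SE, edgeR adjusted p = 0.0425 and 0.00695), and stood at −0.23 and −0.43 for P2 minus P0. So all 4 rows higher in P2 than in AB were called lower in 3-cell AB than in the zygote, and their P2 level was not shown to differ from the zygote's. That zygote level rests on P0 replicates 2 and 3, as replicate 1 held 0, 1, 1 and 0 counts of the 4 rows, in the same order. Of the 6 rows, 5 were called in AB minus P0 with all libraries, 1 without P0 replicate 2 or AB replicate 1, 6 or 7, and 0 without P0 replicate 3. These values share the AB libraries that chose the rows.

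The rows lower in P2 showed the opposite order. Row 3985 averaged 10.2 CPM in P2, 134.5 CPM in AB and 14.1 CPM in P0, and was called higher in AB than in P0, with a log2 fold change of 2.99 ± 0.69 (SE, edgeR adjusted p = 0.0409). For P2 minus P0 it was at −0.10 ± 0.85. Row 10236 averaged 3.91 CPM in P2, 127.2 CPM in AB and 15.4 CPM in P0. Its AB minus P0 log2 fold change of 2.83 ± 0.69 did not pass (SE, edgeR adjusted p = 0.0526), and P2 minus P0 was at −1.60 ± 1.06. Averages of row 10236 were 53.6 CPM in P1 against 56.6 CPM in 2-cell AB, and 31.4 CPM in P3 against 106.9 CPM in 4-cell AB.

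**Figure D5:**
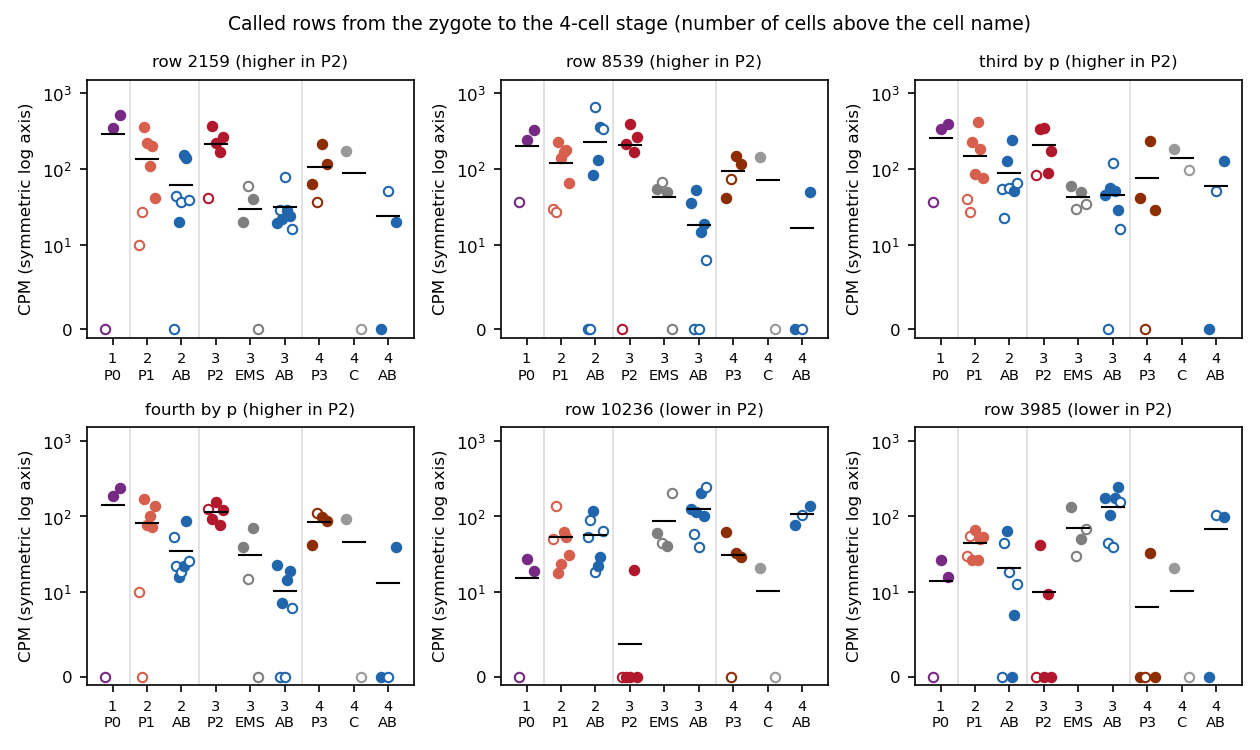
CPM, on a symmetric log axis, of the 6 called rows in each library of P0, of P1 and AB at 2 cells, of P2, EMS and AB at 3 cells and of P3, C and AB at 4 cells, with lines at the means and open circles for low-score libraries. Row 2159 averages 288 CPM in P0, 137.7 and 62.3 CPM in P1 and 2-cell AB, 213 and 31.4 CPM in P2 and 3-cell AB, and 108.1 and 23.8 CPM in P3 and 4-cell AB.

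Beyond the called rows, the 516 rows at an unadjusted p under 0.05 describe how far the libraries spread. Those higher in P2 took 3.86% to 9.64% of counts in P2 libraries, with a median of 4.20%, and 0.690% to 2.71% in AB, with a median of 1.27%. The 342 rows lower in P2 took 1.29% to 2.24% in P2 and 4.18% to 19.03% in AB, with medians of 1.81% and 6.27%. These separations come from the choice of rows. The highest AB share of the first list and the lowest of the second were both in the library labelled AB replicate 3, and the highest P2 share of the first was in P2 replicate 1. EMS libraries, which entered the choice through the shared estimate of spread and the filter on low counts, had medians of 2.09% and 4.11%.

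The same lists were read in the libraries of other stages. Of the rows higher in P2, 86.8% had a positive P3 minus AB fold change (median 1.17 on the log2 scale), against 59.3% of all 3097 rows (median 0.21). For P1 minus AB it was 81.6% (median 0.59), against 55.8% of all rows (median 0.08). Of the 342 rows, 269 were negative in P3 minus AB (78.7%, median −0.86), against 40.7% of all rows, and 205 were negative in P1 minus AB (59.9%, median −0.11), against 44.2%. In P0 the rows higher in P2 held 1.51%, 3.55% and 4.88% of counts in replicates 1, 2 and 3, and replicate 1, a low-score library, lay within the AB range. The share was also low in the low-score P libraries of other stages, at 1.10% and 1.92% in P1 and 1.43% in P3, against 2.02% to 4.22% in the other P1 and 3.12% to 4.04% in the other P3 libraries. At 2 cells, 2 of 7 P1 and 4 of 7 AB libraries were low-score. The share in 2-cell AB was 1.16% to 2.22% in low-score libraries and 2.61% to 3.07% in the others. The part of score or library quality in these shares and in the P1 minus AB fold changes was not tested. In 4-cell libraries the rows higher in P2 held medians of 3.41% in P3, 2.36% in C and 1.52% in AB, with the 342 rows at 2.96%, 3.66% and 7.92%. The 2 libraries of that stage titled p4, left out of the P3 comparison, held 4.30% and 3.36%. Row 2159 was at 1026 and 217 CPM in them. The fourth row had no count in either, which allows up to 93.3 and 130.5 CPM, and was at 42.2 to 111.96 CPM in P3.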

How the data were processed

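All values come from the whole-number counts per row that the authors deposited for single blastomeres, 16853 rows in all. CASAVA 1.8, Bowtie2 2.1.0 and HTSeq 0.5.4p3 appear in the submitters' processing notes; their settings and any collapsing of molecular identifiers are not stated there. No count exceeds 1024, so the most abundant rows may be compressed. Columns were matched to samples by the final number of the sample description, and 9 columns, none from the stages used here, were left out because their names also fit the title of another sample.

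P2, AB and EMS libraries of at least 10000 counts shared 1 fit in R 4.3.3 with edgeR 4.0.16 and limma 3.58.1, using TMM, filterByExpr (minimum count 10, minimum total 15), robust quasi-likelihood tests and Benjamini-Hochberg adjustment, called under 0.05. Single values were compared by exact two-sided permutation (scipy 1.17.1). The component score used 884 rows with at least 2000 counts, as log2(CPM + 50), and held 24.8% of the variance. Named are the 2 rows of smallest p in each direction that were called and detected in more than 50% of the higher cell's libraries; other called rows are given by rank. Comparisons, lists and rules were chosen with earlier results of these data known. Alternatives were DESeq2 1.42.0, other scalings and filters, sample sets, a replicate block and leaving out each library. Intervals and limits for 0 counts (3 counts) cover counting error only. The closest replicates, AB 1 and 6, had a chi-square of 3.25 for each degree of freedom, and none was treated as a duplicate.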

Additional observations from a re-analysis of the deposited data

Results flagged for a closer look

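Of 22 groups of values, 5 held a library whose gap to its nearest neighbour was large for the range of its group. The limit used is one that chance passes in about 1 of 20 groups of normally distributed values. In a sparse row it is passed more easily, since a single library with any count is enough, as for row 10236.

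In P2, the 100 most abundant rows took 34.4% of counts in replicate 1, against 16.4% to 20.5% in the other 4. Row 10236 was at 19.6 CPM in P2 replicate 7 and at 0 in the other 4, and row 3985 at 41.4 CPM in P2 replicate 2, against 0 to 9.78 CPM in the rest. In AB, row 2159 was at 79.3 CPM in replicate 4, from 2 counts, against 16.4 to 29.4 CPM in the other 6. The rows higher in P2 at an unadjusted p under 0.05 took 2.71% of counts in AB replicate 3, against 0.690% to 1.47% in the other 6 AB libraries.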

How the results depend on the processing

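As shares of the rows tested, the 0.194% (6 rows) called for P2 minus AB became 0.129% (4) with RLE size factors and 0.291% (9) with a term for sample numbers. With each setting's own filter it was 0.0594% (10) without a filter, 0.0522% (1) with P2 and AB libraries alone, where 2 of the 6 rows passed the filter, 0.114% (3) with no minimum total, 0.0482% (2) with a minimum of 50000 counts and 0% with libraries thinned to 10000 counts (7 rows at an unadjusted p under 0.05). Libraries numbered below 50 gave 0% under either filter, and those of 50 and above 0% on the same rows. Without low-score libraries it was 2.63%, or 3.84% on the same rows. With DESeq2 it was 0.244% (41, of which 28 were higher in P2 and 13 lower), or 1.94% (60, 20 higher and 40 lower) on the same rows. Leaving out each library gave 0% to 2.31%, or 0.0323% to 2.78% on the same rows.

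Same-numbered P2 and AB libraries correlated at −0.168 to 0.290 in their deviations, with 2 of 5 over 0.1 and 2 of 5 closest to their own number. That fell short of the criterion for pairing (every pair over 0.1). Numbers 6 and 7, with scores above 0 in both cells, gave 0.175 and 0.290. Numbers 1, 2 and 8 each set a low-score library against one that was not, and gave −0.159, −0.168 and −0.146. The criterion therefore could not decide whether the numbers pair the libraries. Most same-numbered libraries have neighbouring sample numbers, and no label says whether they share an embryo. With the replicate block 0.922% (26) were called, or 0.807% (25) on the same rows, where 5 of the 6 calls were kept and the fourth row higher in P2 was not (edgeR adjusted p = 0.0585). That fit leaves out AB replicates 3 and 4, and the remaining libraries gave 4.26% without the block, or 3.97% on the same rows.

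P3 minus AB had 0% called with its own filter (63 rows at an unadjusted p under 0.05) and 0% to 0.194% leaving out each library. AB minus P0 had 0% to 1.25%, and 3.74% without low-score 3-cell libraries, and P2 minus P0 had 0% to 0.0201%. The difference in log2 total ran from −1.42 (without AB replicate 4, exact permutation p = 0.0216) to −0.71. The cause of these changes was not tested. Row 2159 was called in 32 of 34 alternatives, row 8539 in 31 of 35, the third and the fourth row higher in P2 in 18 of 36 and 15 of 29, row 10236 in 30 of 41 and row 3985 in 19 of 41. Each row is counted only over the alternatives that gave it a fold change. Many of these leave out 1 library and so share most of their data. In P2 replicate 1 a single count is 42.1 CPM, which limits what can be read there.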
